A study of Mus musculus with 14 samples.

Results

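The genes described here are 10 members of the Wnt and β-catenin pathway in mouse muscle stem cells (MuSCs), out of 16424 genes with a symbol in at least 1 of the deposited tables. They were chosen by symbol: the ligand Wnt9a, the receptors Fzd7 and Lrp6, the destruction complex components Apc, Axin1, Axin2 and Gsk3b, β-catenin itself (Ctnnb1), and the nuclear factors Lef1 and Tcf7l2. All 10 were in the input RNA table and in the m6A-RIP table, 6 had peaks in the Igf2bp3-RIP table and 5 in the Lin28a-RIP table. The choice was made with values of these data in view, above all the m6A-RIP signal of Axin2 against its RNA, and that value is therefore given as a description with no test.

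In the canonical Wnt pathway, a secreted Wnt ligand engages a Frizzled receptor and the co-receptor Lrp5 or Lrp6. Without ligand, a cytoplasmic complex built on Axin and Apc lets casein kinase 1 and Gsk3 phosphorylate β-catenin, which is then ubiquitinated and degraded. With ligand, β-catenin accumulates and binds TCF/LEF factors on DNA, and Axin2 is a classical target that feeds back on the pathway. In skeletal muscle, Wnt signals have been linked to the activation and the differentiation of MuSCs.

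The series held 14 libraries from MuSCs of mouse skeletal muscle, cultured on Matrigel in DMEM with fetal bovine serum. The input libraries are labelled as untreated cells and the others by their immunoprecipitation. Lin28a+ MuSCs, sorted in the study from muscle of Lin28a-CreERT2; LSL-tdTomato mice, were compared with control MuSCs, whose mice are described in the labels by the genotype Control alone. The tdTomato label marks cells in which the tamoxifen-dependent Cre driven by Lin28a was once active, and their descendants. Each group had 2 input libraries, 2 m6A-RIP libraries (immunoprecipitation of N6-methyladenosine, the commonest internal mark of mRNA) and 2 Igf2bp3-RIP libraries (Igf2bp3 is an RNA-binding protein that recognises m6A). For the m6A-RIP, according to the study's methods, mRNA was first purified from total RNA and a part of it was kept as the input, while the labels give polyA RNA for the m6A-RIP and total RNA for all other libraries, the input included. A Lin28a-RIP was made from Lin28a+ MuSCs alone, in 2 libraries, so it had no control to be compared with.

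Library totals were 4842838 to 6220928 in the input table, 21350962 to 31830638 in the m6A-RIP table, 9215355 to 34142094 in the Igf2bp3-RIP table and 33908110 to 36610494 in the Lin28a-RIP table. In the Igf2bp3-RIP, replicate 2 was the deeper library in both groups. Of 10 myogenic markers, 9 reached at least 10 counts in every input library, while none of 6 endothelial and none of 6 macrophage and leukocyte markers did. Myogenic markers themselves differed between the groups. Myog, a factor of differentiating myoblasts, measured 764 and 773 CPM in control against 2763 and 2804 CPM in Lin28a+ MuSCs, while Myf5 (log2 fold change -1.21), Vcam1 (-1.93), Sdc4 (-1.10) and Des (-0.53) were lower, Pax7 (0.36) and Cdh15 (0.77) were higher, and Myod1 (0.01) and Itga7 (-0.06) were not called. The sum of the list was 9443 and 9659 CPM in control against 11629 and 11753 CPM in Lin28a+ MuSCs. The summed markers of pericytes and smooth muscle, almost all Acta2, were 5430 and 5392 CPM in control against 7428 and 7411 CPM in Lin28a+ MuSCs. Pdgfrb of that list was also higher (log2 fold change 1.27), while Rgs5 was lower, with 13 counts in each control library against 1 count in each Lin28a+ library (-3.35). Of 8 fibro-adipogenic markers, Ly6a and Col3a1 reached 10 counts in every library, and the sum of the list was 125 and 127 CPM in control against 132 and 130 CPM in Lin28a+ MuSCs. Col3a1 made up most of it and was not called (121 and 120 CPM against 116 and 117 CPM, -0.05), whereas Ly6a was higher in Lin28a+ MuSCs (3.92 and 4.50 CPM against 13.5 and 12.4 CPM, log2 fold change 1.61). The part of these marker shifts in the results below was not tested. Nothing in the labels says that the 2 libraries of a group came from separate animals, so the p-values measure only the spread between these libraries. Lin28a itself was not analysed here.

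The RNA comparison asked which transcripts differ between Lin28a+ and control MuSCs. Of the 9 members that could be tested, 6 were lower in Lin28a+ MuSCs, namely Apc, Axin2, Lrp6, Wnt9a, Fzd7 and Gsk3b. Axin1 was higher, and Ctnnb1 and Tcf7l2 did not pass. Levels are in CPM, counts per 1000000 counts of the library after TMM scaling, and a call is an adjusted p under 0.05 in edgeR's quasi-likelihood test over all 11317 genes tested. By that rule 56.8% of all genes were called (28.1% higher and 28.7% lower), and 60.9% had an unadjusted p under 0.05. The members' 7 calls have to be read against that share. With 2 libraries a group, the groups of an unchanged gene can lie apart too. The share of all genes whose groups do not overlap is not given here, so overlap is a description in each assay. All 9 members' SEs in the RNA lay below the error that counting alone gives for their counts (for Apc 0.072 against 0.15, for Axin2 0.15 against 0.28), as did those of 92.1% of all genes. If 1 unit of these values is 1 read, edgeR's SEs and p-values in the RNA are smaller than counting allows. DESeq2 gave larger SEs and called 5 members lower, Apc (adjusted p = 4.81e-04), Lrp6 (0.00122), Wnt9a (0.00196), Fzd7 (7.52e-07) and Gsk3b (1.08e-04), where it called 26.9% of all genes (13.1% higher and 13.8% lower). The median log2 fold change of the 9 members was -0.67, beside 0.01 over all genes tested. Because the members were chosen with values of these data in view, the gap between these medians is a description and was not tested. In bulk RNA, fewer cells of a type and less RNA per cell cannot be told apart.

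Among the signals and their receptors, Wnt9a (ENSMUSG00000000126, chr11:59306849-59333552 in GRCm38.p6), a secreted Wnt ligand, measured 41.9 and 43.8 CPM in control against 25.7 and 23.1 CPM in Lin28a+ MuSCs. Both Lin28a+ libraries lay below both control libraries, with a log2 fold change of -0.81 (SE 0.067, adjusted p = 2.28e-04). Fzd7 (ENSMUSG00000041075, chr1:59482147-59486955), a Frizzled receptor that has been described as a Wnt7a receptor in MuSCs, fell from 143 and 148 CPM to 88.8 and 93.7 CPM. Its groups did not overlap, and the log2 fold change was -0.67 (SE 0.039, adjusted p = 6.89e-05). Lrp6 (ENSMUSG00000030201, chr6:134446476-134566913), the co-receptor that recruits Axin to the membrane, measured 40.9 and 42.4 CPM in control against 20.4 and 24.9 CPM in Lin28a+ MuSCs. It fell by 0.88 on the log2 scale (SE 0.089, adjusted p = 4.86e-04), to 0.544 of its control level, and its groups did not overlap.

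In the destruction complex the scaffold Apc had the largest change of the members. Apc (ENSMUSG00000005871, chr18:34220297-34322190), which holds β-catenin in the complex, measured 27.1 and 28.4 CPM in control against 11.8 and 12.9 CPM in Lin28a+ MuSCs, a log2 fold change of -1.18 (SE 0.072, adjusted p = 8.39e-05). Gsk3b (ENSMUSG00000022812, chr16:38089001-38246084), the kinase that marks β-catenin for degradation, fell from 90.6 and 91.0 CPM to 58.1 and 56.3 CPM, with a log2 fold change of -0.67 (SE 0.037, adjusted p = 6.26e-05). For both genes the groups were well apart and the 2 libraries of each group lay close together. The paralogous scaffolds Axin1 and Axin2 were called in opposite directions by edgeR and not called by DESeq2. Axin1 (ENSMUSG00000024182, chr17:26131217-26195811), the widely expressed scaffold, measured 39.6 and 42.5 CPM in control against 49.2 and 49.0 CPM in Lin28a+ MuSCs, a log2 fold change of 0.25 (SE 0.052, adjusted p = 0.0135). Axin2 (ENSMUSG00000000142, chr11:108917828-108950783), the inducible scaffold, measured 6.54 and 7.71 CPM in control against 3.53 and 4.08 CPM in Lin28a+ MuSCs, a log2 fold change of -0.91 (SE 0.15, adjusted p = 0.00323). These levels stand for deposited values of 35 and 48 against 18 and 20 after rounding, far lower than those of Apc or Gsk3b. Whether 1 unit is 1 read is not known, so the number of reads behind Axin2 is not known either. In DESeq2 the same estimates did not pass, at 0.25 with adjusted p = 0.394 for Axin1 and -0.92 with adjusted p = 0.240 for Axin2, and the Axin1 call was also lost without control replicate 1 (adjusted p = 0.113) and without either Lin28a+ library (adjusted p = 0.0629 and 0.0516).

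Downstream of the complex the levels were close between groups. Ctnnb1 (ENSMUSG00000006932, chr9:120933400-120960507), the transcriptional co-activator and cadherin partner, measured 162 and 159 CPM in control against 148 and 150 CPM in Lin28a+ MuSCs. The groups did not overlap, but the log2 fold change of -0.11 (SE 0.028) did not pass, with adjusted p = 0.0606. It passed with DESeq2's size factors in edgeR (adjusted p = 0.0421) and when genes under 10 counts in any library were left out (adjusted p = 0.0197). Tcf7l2 (ENSMUSG00000024985, chr19:55741797-55933659), a TCF factor, measured 3.74 and 3.69 CPM in control against 3.73 and 3.67 CPM in Lin28a+ MuSCs, and its log2 fold change was -0.01 (SE 0.14, adjusted p = 0.990). Lef1 (ENSMUSG00000027985, chr3:131110297-131224357), the related LEF factor, had 1.31 and 1.28 CPM against 1.57 and 1.22 CPM, which is 6 to 8 counts a library, and did not pass the filter on low counts. The groups of both nuclear factors overlapped.

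**Figure D1:**
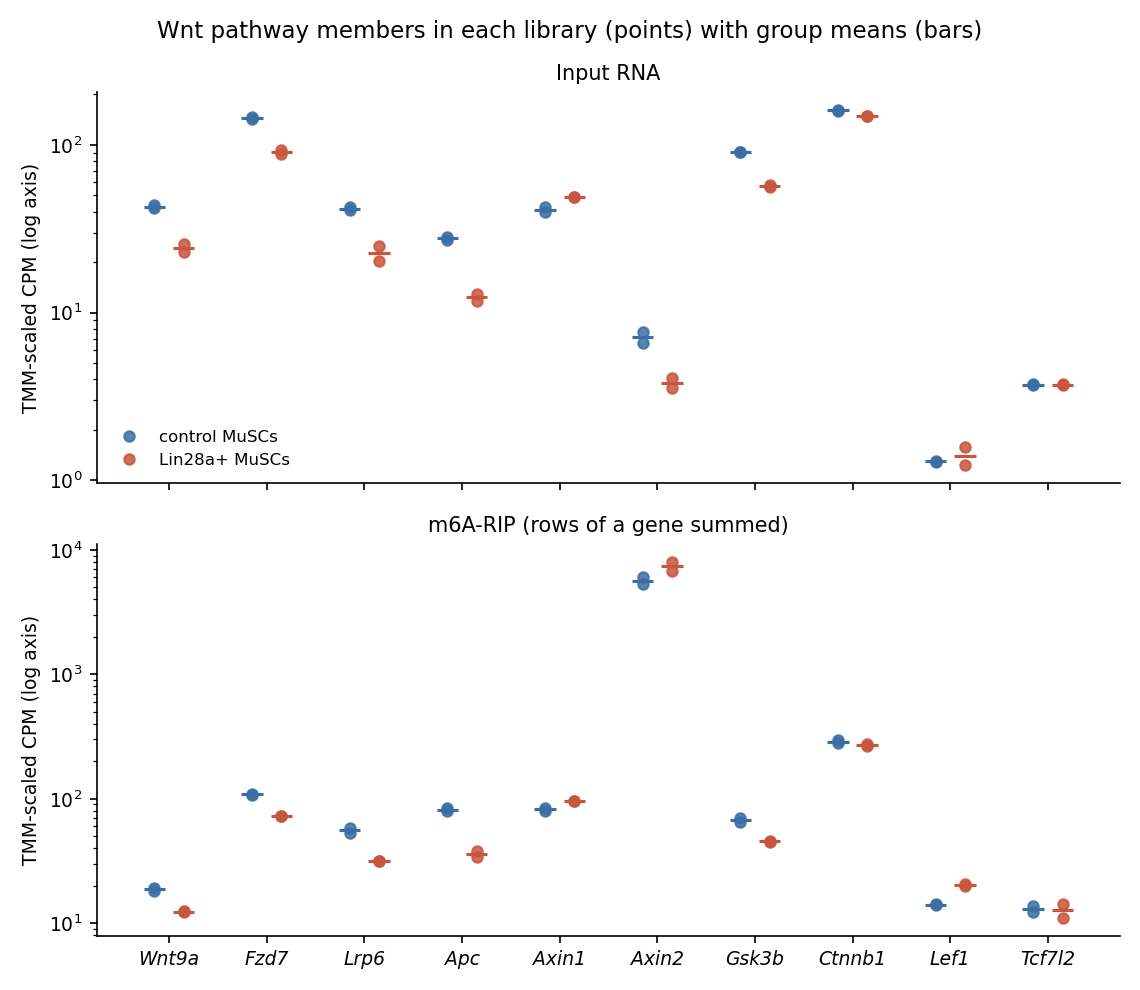
TMM-scaled CPM on a log axis for the 10 members in the input RNA (upper panel) and in the m6A-RIP with the rows of a gene summed (lower panel). Each point is 1 library, blue for control and red for Lin28a+ MuSCs, with 2 libraries a group and a bar at the group mean. Axin2 lay between 3.53 and 7.71 CPM in the input and between 5290 and 7947 CPM in the m6A-RIP.

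The sequence before the transcription start was read for the members, because TCF/LEF factors bind the letters CTTTGA or CTTTGT. RefSeq promoter windows of GRCm38.p6 were at hand for 7 of the 10 members, in 12 windows, and 4 windows of 4 genes held either motif on either strand within 250 bases before the start. The windows belong to single transcript starts, and those with a match in Lef1 and Tcf7l2 precede starts 46.0 and 154 kb inside the span of the gene. Over all RefSeq windows of that length the share was 27.6% of 32851. Axin2, Fzd7, Gsk3b and Wnt9a are shown because their RNA was lower in Lin28a+ MuSCs. All 4 are on the plus strand and written 5′ to 3′, at chr11:108920099-108920348, chr1:59481897-59482146, chr16:38088751-38089000 and chr11:59306680-59306929, with the motif in capitals (the Axin2 window precedes a start 2.52 kb inside the span given above), where ACAAAG and TCAAAG are its reverse complements.
Axin2: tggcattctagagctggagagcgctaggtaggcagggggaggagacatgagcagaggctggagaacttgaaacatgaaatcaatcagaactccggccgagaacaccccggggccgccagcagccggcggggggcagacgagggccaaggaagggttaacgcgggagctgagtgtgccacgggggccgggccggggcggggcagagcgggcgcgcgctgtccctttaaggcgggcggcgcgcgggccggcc
Fzd7: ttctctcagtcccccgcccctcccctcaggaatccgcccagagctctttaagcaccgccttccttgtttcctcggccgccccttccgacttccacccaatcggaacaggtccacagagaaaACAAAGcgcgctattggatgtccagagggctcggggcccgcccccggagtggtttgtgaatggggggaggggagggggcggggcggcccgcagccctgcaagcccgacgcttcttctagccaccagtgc
Gsk3b: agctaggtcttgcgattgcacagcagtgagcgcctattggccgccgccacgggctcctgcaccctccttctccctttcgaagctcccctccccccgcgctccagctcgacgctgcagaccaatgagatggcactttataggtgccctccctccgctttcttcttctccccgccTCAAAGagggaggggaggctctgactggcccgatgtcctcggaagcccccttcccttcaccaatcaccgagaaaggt
Wnt9a: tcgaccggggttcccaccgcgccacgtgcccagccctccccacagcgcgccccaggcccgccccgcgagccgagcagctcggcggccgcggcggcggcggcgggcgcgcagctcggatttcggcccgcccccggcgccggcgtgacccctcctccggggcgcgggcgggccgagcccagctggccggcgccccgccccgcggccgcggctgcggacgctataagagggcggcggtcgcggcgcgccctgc
In these windows the motif stood once in Fzd7, with its first base 129 bases before the start, and once in Gsk3b, 77 bases before it. No match was found in the Axin2 and Wnt9a windows, which says only that those letters were not in these bases.

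The m6A-RIP comparison asked how the immunoprecipitated signal differs between the groups. Summed per gene, 9 of the 10 members were called, 6 lower and 3 higher, where 66.2% of all 9413 genes tested were called (32.5% higher and 33.7% lower) and 68.9% had an unadjusted p under 0.05. Apc, Lrp6, Wnt9a, Fzd7 and Gsk3b fell as in the RNA, Ctnnb1 fell slightly, and Axin1, Axin2 and Lef1 rose. The median log2 fold change of the members was -0.38, beside 0.01 over all genes, again a description of genes chosen with these data in view.

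Apc measured 79.6 and 83.6 CPM in control against 34.4 and 37.9 CPM in Lin28a+ MuSCs, a log2 fold change of -1.22 (SE 0.068, adjusted p = 1.15e-08). Lrp6 fell from 58.3 and 53.6 CPM to 31.5 and 31.6 CPM, a log2 fold change of -0.88 (adjusted p = 3.29e-07). The groups of both genes were apart, and the size of each change was near that of its RNA. Fzd7 fell from 110 and 107 CPM to 72.3 and 73.1 CPM (log2 fold change -0.63, adjusted p = 1.48e-07) and Gsk3b from 69.7 and 65.2 CPM to 44.7 and 46.1 CPM (-0.63, adjusted p = 2.65e-06). Wnt9a fell from 19.2 and 18.3 CPM to 12.3 and 12.4 CPM (-0.65, adjusted p = 4.04e-04). The ligand, the receptors, Apc and Gsk3b thus had lower m6A-RIP signal in both Lin28a+ libraries than in either control library.

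Axin1 rose from 80.4 and 85.03 CPM to 96.4 and 95.9 CPM (log2 fold change 0.17, SE 0.049, adjusted p = 0.0102). Lef1, whose RNA was too low to test, rose from 13.9 and 14.2 CPM to 20.0 and 20.7 CPM (0.48, SE 0.11, adjusted p = 0.00258). Neither gene overlapped between the groups. Ctnnb1 measured 280 and 295 CPM in control against 275 and 265 CPM in Lin28a+ MuSCs, a log2 fold change of -0.14 (SE 0.044, adjusted p = 0.0121). Tcf7l2 measured 13.9 and 12.3 CPM against 11.05 and 14.4 CPM, and its groups overlapped (-0.09, SE 0.15, adjusted p = 0.609). The small changes of Axin1 and Ctnnb1 leaned on the settings, and that of Axin2, described below, turned with 1 row. Axin1 did not pass with total counts as the scale (0.06, adjusted p = 0.278) or without control replicate 1 (adjusted p = 0.124), and Ctnnb1 did not pass without control replicate 2 (adjusted p = 0.123) or without the second Lin28a+ library (adjusted p = 0.0600).

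**Figure D2:**
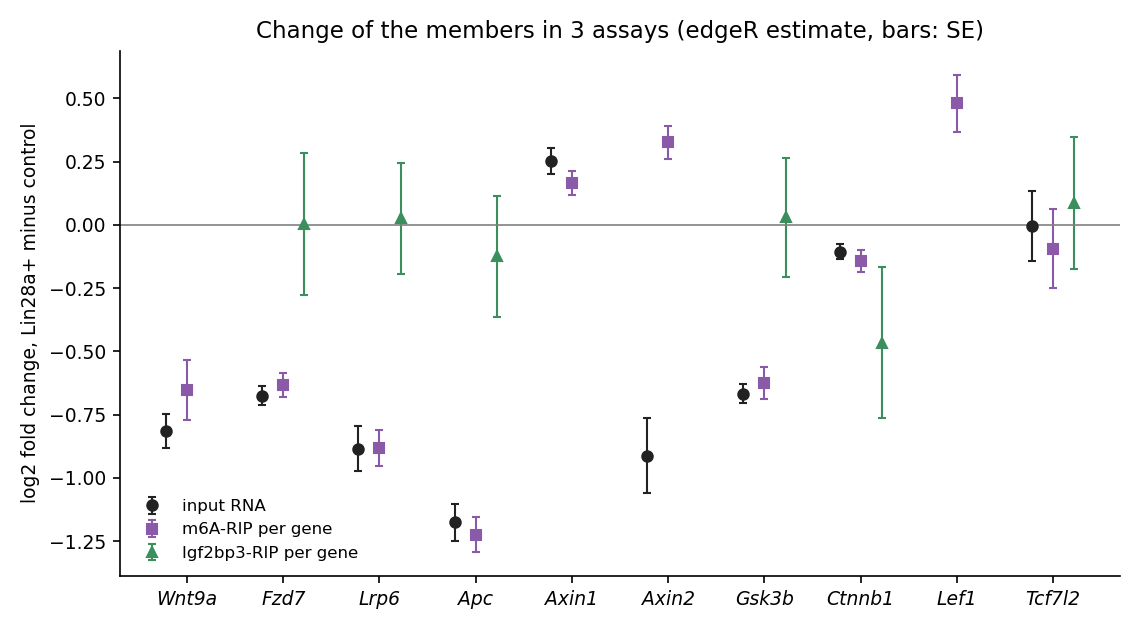
Log2 fold change, Lin28a+ minus control, of the 10 members in the input RNA (black circles), the m6A-RIP per gene (purple squares) and the Igf2bp3-RIP per gene (green triangles), with bars of 1 SE from edgeR and 2 libraries a group. The bars in the input are smaller than the counting error of the same values. Apc lay at -1.18 in the RNA and -1.22 in the m6A-RIP and at -0.12 in the Igf2bp3-RIP, and Axin2 was negative in the RNA (-0.91) and positive in the m6A-RIP (0.33).

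How far the m6A-RIP changed beyond the RNA was tested for each member. In 1 model over both assays, 0 of 9 members passed in edgeR, where 7.26% of 7521 genes did (3.32% higher and 3.94% lower). Axin2 was the 1 member with an unadjusted p under 0.05, beside 17.2% of all genes, and DESeq2 called 1 member, again Axin2, beside 4.47% of all genes. For 6 of the 9 members, Apc, Axin1, Fzd7, Gsk3b, Lrp6 and Wnt9a, the SE lay below the counting error of both assays together, so their intervals are too narrow if 1 unit is 1 read. For Axin2 the difference between the 2 changes was 1.25 on the log2 scale, with an interval of 2 SE to each side from 0.39 to 2.10. For Fzd7 the difference was 0.05 (-0.07 to 0.16). For Gsk3b it was 0.05 (-0.10 to 0.20) and for Ctnnb1 -0.03 (-0.15 to 0.09). The intervals of Apc (-0.32 to 0.23), Lrp6 (-0.24 to 0.25) and Wnt9a (-0.06 to 0.40) were wider, and that of Tcf7l2 (-0.77 to 0.60) was the widest after that of Axin2.

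Axin2 stood apart from the other members in the level of its m6A-RIP signal. The gene measured 6039 and 5290 CPM in control against 7947 and 6788 CPM in Lin28a+ MuSCs in the m6A-RIP, while its RNA lay between 3.53 and 7.71 CPM in the 4 input libraries. On the scale log2 of (m6A-RIP CPM + 1) over (input CPM + 1), Axin2 was at 9.45 in control MuSCs (SD 0.20, 2 libraries of each assay), rank 5 of 8063 genes in both tables, and at 10.6 in Lin28a+ MuSCs (SD 0.20), rank 3. With 0.1 CPM added in place of 1 CPM it was at 9.62 in control and 10.9 in Lin28a+ MuSCs, and ranked 10 and 5. The median of all genes was 0.61 in control and 0.64 in Lin28a+ MuSCs. The next member, Lef1, was at 2.71 in control (SD 0.019), and Tcf7l2 and Apc followed at 1.58 (SD 0.11) and 1.52 (SD 0.068), a gap within their spread. The control RNA of Lef1 was 7 and 8 counts, so its ratio leans on the 1 CPM added. The SD of Lef1 says little about its precision. Axin1 (0.99), Ctnnb1 (0.84) and Lrp6 (0.42) lay around the median of all genes, and Fzd7 and Gsk3b, both at -0.42, were indistinguishable. Wnt9a had the lowest value, at -1.15 (SD 0.064). The order of the 10 members was the same in Lin28a+ MuSCs, where Lef1 was at 3.16 and Wnt9a at -0.92.

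**Figure D3:**
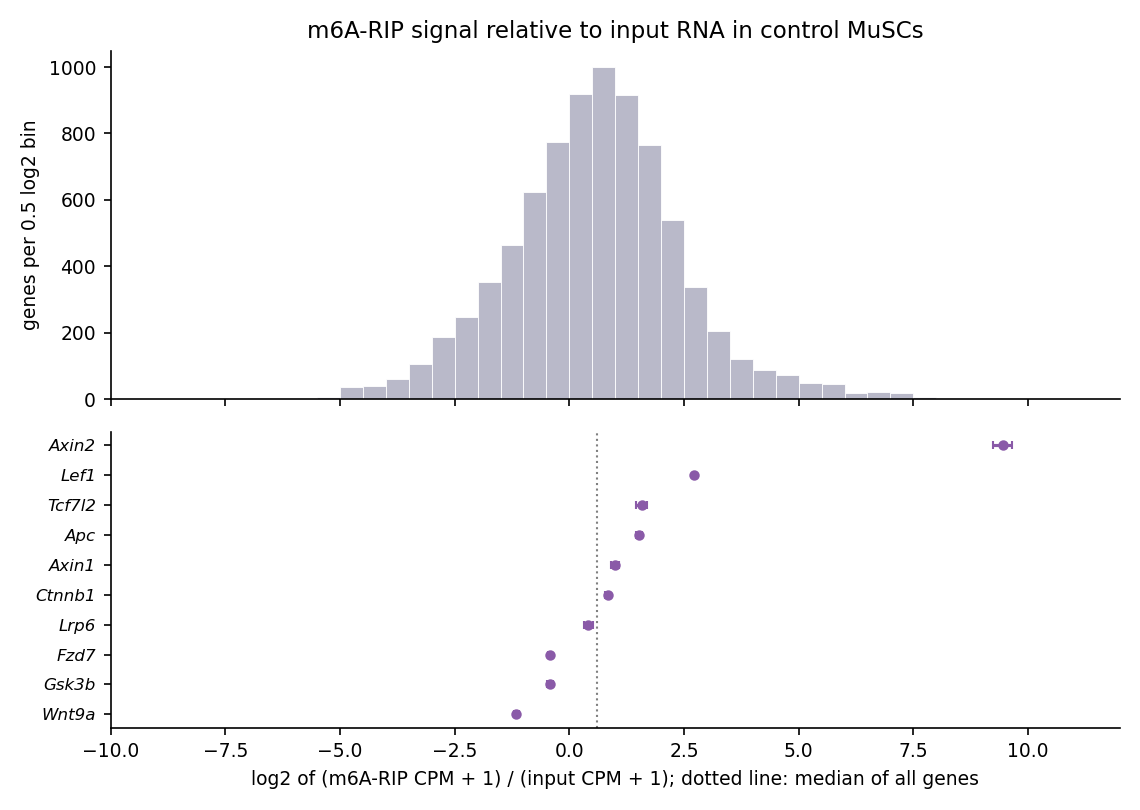
Upper panel: number of genes by the log2 ratio of m6A-RIP to input CPM, each with 1 CPM added, in control MuSCs, over 8063 genes in bins of 0.5. Lower panel: the 10 members on the same axis, as the mean over 2 libraries of each assay with bars of 1 SD and a dotted line at the median of all genes (0.61). Axin2 lay at 9.45 and the other 9 members between -1.15 and 2.71.

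The level of Axin2 rested on 1 of its 3 rows in the m6A-RIP table. That row, deposited under the transcript ENSMUST00000139682.1, held 201340 and 118899 counts in control and 178788 and 199875 counts in Lin28a+ MuSCs, which was 0.557% to 0.753% of each library. It ranked 8 of 18881 rows by its counts over the 4 libraries, where the median row had 1708 counts in all, and it carried 99.7% of the counts of the gene and 308 times those of the other 2 rows together. The table gives no position for its rows, so where the row lies in the gene is not known here.

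The 3 rows of Axin2 did not move together. The largest row rose from 6011 and 5265 CPM to 7932 and 6773 CPM (log2 fold change 0.38, SE 0.063, adjusted p = 1.08e-04). The row under ENSMUST00000106711.1 fell from 17.7 and 15.8 CPM to 8.30 and 8.34 CPM (-1.01, SE 0.13, adjusted p = 1.26e-05). The other row under ENSMUST00000139682.1 fell from 10.4 and 8.90 CPM to 6.83 and 6.30 CPM (-0.56, SE 0.16, adjusted p = 0.00804). Without the largest row the gene had 28.1 and 24.7 CPM in control against 15.1 and 14.6 CPM in Lin28a+ MuSCs, and its log2 fold change turned from 0.33 (SE 0.065, adjusted p = 7.85e-04) to -0.88 (SE 0.11, adjusted p = 1.39e-05). Relative to the RNA the change went from 1.25 (SE 0.43, adjusted p = 0.139) to 0.03 (SE 0.24, adjusted p = 1.00), and the level in control from 9.45 to 1.75, rank 1883 of 8063. With the row, DESeq2 called the change relative to the RNA (1.25, adjusted p = 0.00814), and over 13 alternatives that kept the row the estimate ran from 1.12 to 1.36 and the adjusted p from 0.00814 to 0.418.

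**Figure D4:**
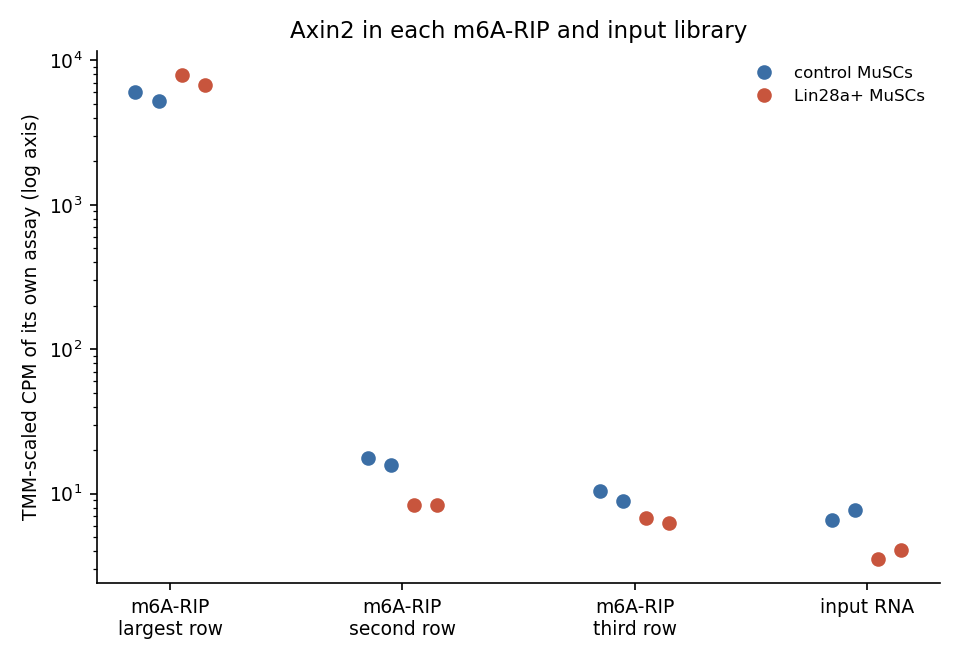
TMM-scaled CPM of its own assay, on a log axis, for the 3 m6A-RIP rows of Axin2 and for its input RNA. Each point is 1 library, blue for control and red for Lin28a+ MuSCs. The largest row lay between 5265 and 7932 CPM and was higher in Lin28a+ MuSCs, while the other 2 rows (6.30 to 17.7 CPM) and the RNA (3.53 to 7.71 CPM) were lower.

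The RNA side of the ratio has a limit of its own. The 4 deposited input values of Axin2 became whole numbers when multiplied by 7 (244, 334, 123 and 139, within 0.02), whereas those of Wnt9a became whole at 2 and those of Fzd7 were whole as deposited. No multiplier up to 40 did so for the other 7 members. Over the table, 6.9% of genes were whole as deposited and 48.2% after some multiplier up to 40. How the authors formed these values is not given in the sources used here, so whether they stand for all reads of a gene is not known, and the levels per gene carry that limit. If the multiplied values of Axin2 are its reads, the counting error given for Axin2 above is too large.

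The genes with the ratios nearest to that of Axin2 in control MuSCs were Emid1 (9.82), Hic2 (9.92) and Apbb1ip (10.6) above it and Plekha1 (9.25), Smim24 (9.16) and Filip1l (9.15) below it, as means over 2 libraries of each assay. Their input levels in control ran from 0 CPM for Emid1 in 1 library to 53.8 CPM for Filip1l. Filip1l had 31686 and 30088 CPM in the control m6A-RIP and 43708 and 46767 CPM in Lin28a+ MuSCs, while its RNA went from 53.3 and 53.8 CPM to 28.2 and 27.5 CPM. Plekha1 showed the same pair of values in direction, with 5202 and 4761 CPM against 8116 and 7311 CPM in the m6A-RIP and 7.10 and 7.22 CPM against 4.71 and 4.90 CPM in the RNA. The other 4 neighbours did not. The RNA of Apbb1ip was higher in Lin28a+ MuSCs (1.31 and 0.642 CPM against 3.92 and 4.28 CPM), that of Hic2 overlapped between the groups (6.17 and 5.94 CPM against 7.26 and 5.71 CPM), and the m6A-RIP of Emid1 (993 and 969 CPM against 1011 and 1039 CPM) and Smim24 (750.4 and 762 CPM against 758 and 759 CPM) was close between them.

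Among the other members the rows of a gene mostly moved alike. Of 28 rows of the 10 members, 17 were called lower and 5 higher, where 61.8% of all rows were called (30% higher and 31.8% lower) and 65.2% had an unadjusted p under 0.05. All 4 rows of Lrp6 and all 3 rows of Fzd7 were lower, with log2 fold changes of -0.90 to -0.74 and of -0.74 to -0.44. Of 7 rows of Apc, 6 were lower (-1.43 to -1.08) and 1 small row was higher, with 1.52 and 1.64 CPM in control against 2.48 and 2.74 CPM in Lin28a+ MuSCs (0.73, SE 0.28, adjusted p = 0.0349). The largest Apc row measured 26.5 and 28.7 CPM in control against 11.6 and 12.4 CPM in Lin28a+ MuSCs (-1.20, adjusted p = 3.55e-07). Axin1 had 2 higher rows of 3. Its largest row went from 58.8 and 62.4 CPM to 68.1 and 67.8 CPM (0.17, adjusted p = 0.0192), and its smallest from 2.66 and 2.70 CPM to 5.63 and 5.08 CPM (1.00, adjusted p = 0.00140). One of the 2 Lef1 rows was higher, at 5.97 and 7.13 CPM against 10.5 and 10.9 CPM (0.72, adjusted p = 0.00130). Neither row of Ctnnb1 passed, the larger one with 235 and 250 CPM against 230 and 222 CPM (-0.10, SE 0.050, adjusted p = 0.0917), nor did either row of Tcf7l2.

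Igf2bp3-RIP peaks were listed for 6 members. Lrp6 had 20, Apc 11, Gsk3b 8, Tcf7l2 7, Ctnnb1 6 and Fzd7 1, which made 53 peaks, all overlapping the RefSeq span of their gene. None was listed for Wnt9a, Axin1, Axin2 or Lef1, so for Axin2 the m6A-RIP signal had no Igf2bp3-RIP or Lin28a-RIP value beside it. The comparison of the groups asked whether Igf2bp3 binding differs between the cells. In edgeR 0 of 53 peaks and 0 of 6 genes passed, where 0.123% of 19465 peaks (0.0616% in each direction) and 0.287% of 4524 genes (0.133% higher and 0.155% lower) did. None of the members' peaks or genes (0 of either) had an unadjusted p under 0.05, beside 5.22% of all peaks and 8.44% of all genes, and DESeq2 called none, beside 1.35% of all peaks and 2.54% of all genes. With the replicate number as a block, 1 member peak was called, in Ctnnb1 (chr9:120950358-120950583, log2 fold change -0.68, SE 0.19, adjusted p = 0.00657), among 1988 peaks in all.

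Apc measured 1025 and 859 CPM in control against 900 and 833 CPM in Lin28a+ MuSCs in the Igf2bp3-RIP, and Gsk3b 912 and 823 CPM against 942 and 838 CPM. Lrp6 measured 431 and 473 CPM against 453 and 471 CPM, and Tcf7l2 241 and 159 CPM against 255 and 172 CPM. The groups of these 4 genes overlapped, and for Tcf7l2 the 2 replicates of a group differed far more than the groups. Fzd7, with a single peak of 200 bp, had 16.5 and 11.3 CPM against 14.6 and 13.1 CPM, and its groups overlapped too. Ctnnb1 was the member whose groups did not overlap, with 1012 and 1386 CPM in control against 876 and 879 CPM in Lin28a+ MuSCs (log2 fold change -0.47, SE 0.30, adjusted p = 0.781). Its 6 peaks all had negative log2 fold changes, from -0.69 to -0.28. With 2 libraries a group, unchanged genes can also lie apart, so the lack of overlap in Ctnnb1 is a description alone.

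Set against the RNA in 1 model, 0 of 6 members passed in edgeR, where 1.36% of 3759 genes did (0.479% higher and 0.878% lower), and 3 had an unadjusted p under 0.05, beside 25% of all genes. These were Apc, Lrp6 and Gsk3b, 3 of the members whose RNA was lower. The change of the Igf2bp3-RIP signal relative to RNA was 0.82 on the log2 scale for Apc (SE 0.18, adjusted p = 0.0658), 0.68 for Lrp6 (SE 0.22, adjusted p = 0.132) and 0.47 for Gsk3b (SE 0.16, adjusted p = 0.133). Fzd7 was at 0.46 (SE 0.21, adjusted p = 0.232), Tcf7l2 at -0.14 (SE 0.38, adjusted p = 0.863) and Ctnnb1 at -0.59 (SE 0.29, adjusted p = 0.256). For Apc, Gsk3b, Fzd7 and Ctnnb1 these SEs lay below those of the Igf2bp3-RIP alone (0.24, 0.23, 0.28 and 0.30). A difference from the RNA cannot be known better than the RIP change itself, so the SEs and p-values of these genes are too small. Apc passed when Igf2bp3-RIP control replicate 1 (adjusted p = 0.0480), Lin28a+ replicate 1 (0.0307) or Lin28a+ replicate 2 (0.0471) was left out, and its adjusted p ran from 0.0307 to 0.328 over 13 alternatives. DESeq2 called none of the 6, beside 1.86% of all genes.

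**Figure D5:**
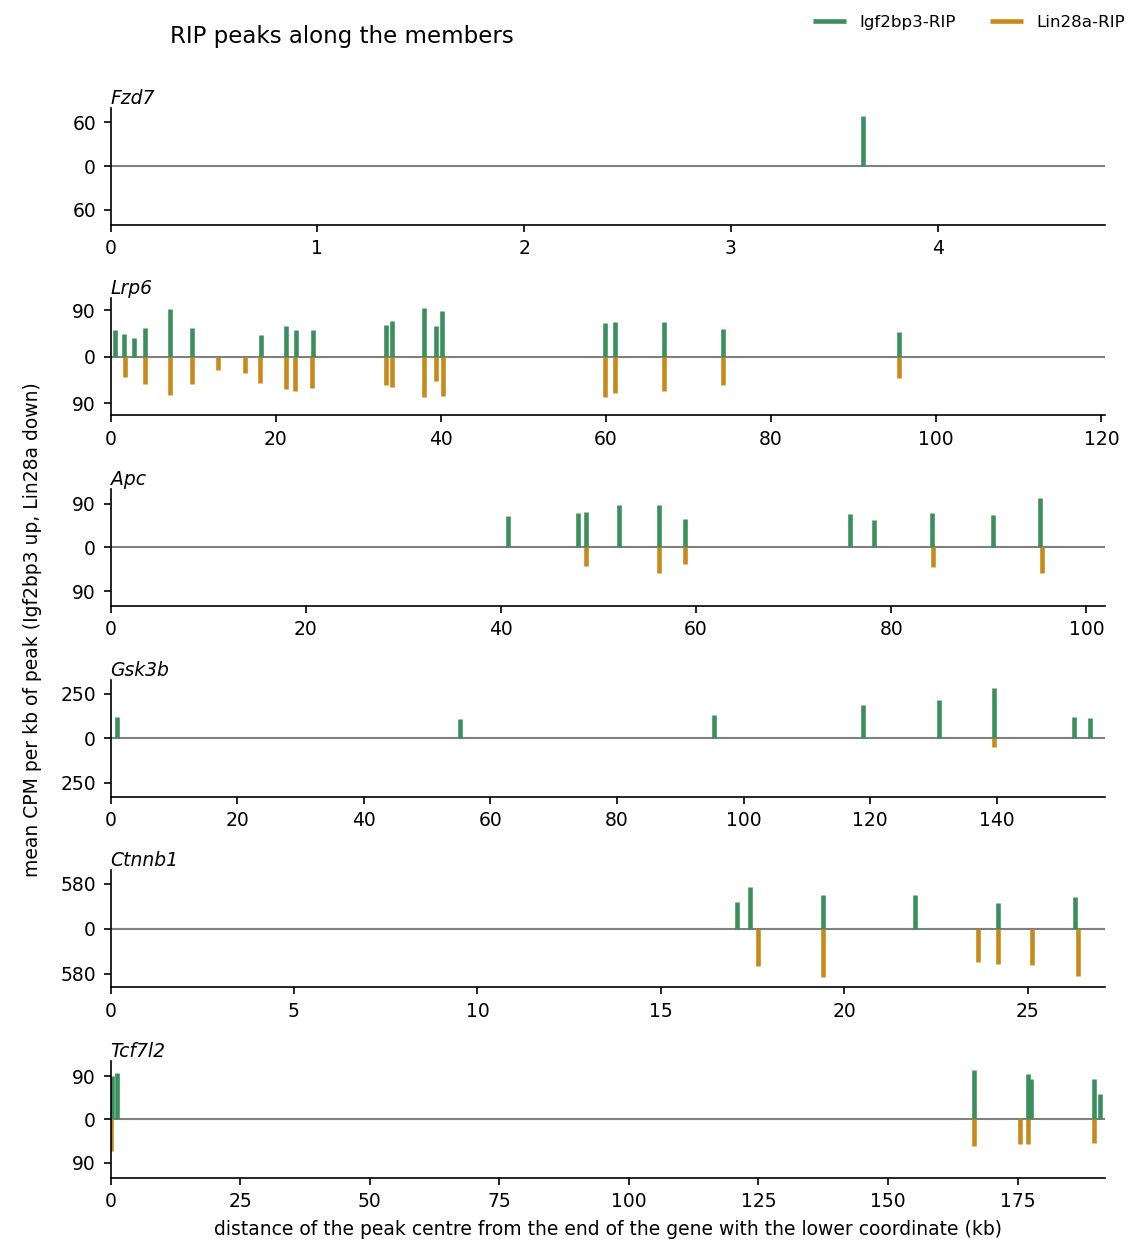
Mean CPM per kb of peak for each Igf2bp3-RIP peak (green, upward, mean of 4 libraries) and Lin28a-RIP peak (ochre, downward, mean of 2 libraries) along the 6 members with peaks. The x axis gives the distance of the peak centre from the end of the gene with the lower coordinate in kb, with a scale of its own for each gene. Lrp6 had 20 peaks of each protein along the gene, and Gsk3b had 8 Igf2bp3-RIP peaks and 1 Lin28a-RIP peak.

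The Lin28a-RIP gave 37 peaks in 5 members: 20 in Lrp6, 6 in Ctnnb1, 5 in Apc, 5 in Tcf7l2 and 1 in Gsk3b. Of these, 32 (86.5%) shared 1 bp or more with an Igf2bp3-RIP peak, and 35 of the 53 Igf2bp3-RIP peaks (66.0%) overlapped a Lin28a-RIP peak. Over all peaks the shares were 52.4% of 21616 Lin28a-RIP peaks and 60.4% of 19465 Igf2bp3-RIP peaks. In Lrp6 all 20 Igf2bp3-RIP peaks overlapped a Lin28a-RIP peak and 18 of 20 the other way. In Gsk3b 1 of 8 Igf2bp3-RIP peaks did so. The peaks of a gene are parts of 1 transcript and no replicates of each other.

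Per kb of peak, a measure that takes the length of the peaks into account but not the level of the RNA, Ctnnb1 had the strongest Lin28a-RIP signal of the members, 529 and 517 CPM per kb in the 2 libraries. Lrp6 had 52.3 and 50.8 CPM per kb, Apc 49.6 and 51.8, Tcf7l2 54.1 and 53.1, and Gsk3b 46.5 and 51.8. The other 4 members with Lin28a-RIP peaks thus lay close together, far below Ctnnb1. Their RNA differed, and per CPM of RNA in Lin28a+ MuSCs the mean signal per kb was 14.5 for Tcf7l2, whose RNA rested on 18 and 19 counts, 4.12 for Apc, 3.51 for Ctnnb1, 2.28 for Lrp6 and 0.859 for Gsk3b. In the Igf2bp3-RIP, Ctnnb1 was again the highest, with 401 and 549 CPM per kb in control and 347 and 349 CPM per kb in Lin28a+ MuSCs. Gsk3b followed with 130 and 117 against 134 and 119 CPM per kb, and Apc had 106 and 88.4 against 92.7 and 85.8. Tcf7l2, with 97.2 and 63.97 against 103 and 69.4, overlapped Apc and Fzd7 (82.4 and 56.7 against 73.1 and 65.7), and Lrp6 had 52.7 and 57.8 against 55.4 and 57.7. The ratio to the RNA sums the peaks of a gene, which were called separately for each protein, so their covered length enters the value. In Lin28a+ MuSCs the log2 ratio of Lin28a-RIP to input CPM was 5.03 for Apc (SD 0.095, rank 271 of 3054 genes), 4.54 for Lrp6 (SD 0.20), 4.07 for Tcf7l2 (SD 0.022) and 3.79 for Ctnnb1 (SD 0.025), above the median of 1.72 over all genes. Gsk3b was below it, at -2.42 (SD 0.10), but its only Lin28a-RIP peak covered 0.201 kb, against 8.557 kb in Apc and against 7.026 kb for its own Igf2bp3-RIP peaks, whose ratio in the same cells was 3.93 (SD 0.12). By this ratio Ctnnb1 was not the highest in the Igf2bp3-RIP. In control MuSCs Tcf7l2 was at 5.38 (SD 0.42), Apc at 5.03 (SD 0.19), Lrp6 at 3.41 and Gsk3b at 3.24. Ctnnb1 was at 2.88 (SD 0.32) and Fzd7 at -3.32, beside a median of 1.44.

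The listed peaks of Ctnnb1 had their centres near the upper end of its span, between 17.1 and 26.4 kb from the lower end of a gene of 27.1 kb. On the plus strand, on which RefSeq places Ctnnb1, that is the 3′ part of the gene. The widest Ctnnb1 peak in the Lin28a-RIP (chr9:120950341-120951735, 1395 bp) had 668 and 663 CPM, and the one with the most counts (chr9:120959132-120960399, 1268 bp) had 788 and 753 CPM. The Igf2bp3-RIP peak at that place (chr9:120959172-120960219, 1048 bp) had 397 and 599 CPM in control against 345 and 375 CPM in Lin28a+ MuSCs. Apc was dominated by 1 wide peak of 7123 bp in the Igf2bp3-RIP and 7475 bp in the Lin28a-RIP, which carried 80.1% and 89.6% of its signal. In Tcf7l2, 2 Igf2bp3-RIP peaks had their centres at 0.268 and 1.25 kb from the lower end of the gene and the other 5 between 166.6 and 191 kb.

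The pathway around the 10 members was followed through 102 further genes in 7 role lists, of which 79 were in at least 1 table. In the RNA, 61 of these genes could be tested, and 25 were lower, 13 higher and 23 not called, with a median log2 fold change of -0.10. Over all genes 28.7% were lower and 28.1% higher. DESeq2 called 22 of the 38 genes that edgeR called, 16 lower and 6 higher, beside its 13.8% lower and 13.1% higher over all genes. Of the genes named below that edgeR called in the RNA, it did not call Crebbp, Ctnna1, Ctnnd1, Dvl2, Ep300, Fzd6, Gsk3a, Lgr5 and Tle1. Nor did it call Amer1, Chd8, Dvl3, Fzd9, Pygo1, Ror1 and Wnt5a, which enter the counts per list. Those counts are edgeR's in the RNA and have to be read beside its shares over all genes. In the m6A-RIP per gene, 24 of 58 were lower and 13 higher, beside 33.7% and 32.5% of all genes.

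Of the ligands and the machinery of their secretion, 3 of 4 tested were lower and none higher in the RNA. Wls, the carrier that brings Wnt proteins to the surface, measured 141 and 141 CPM in control against 96.1 and 93.4 CPM in Lin28a+ MuSCs (log2 fold change -0.57, adjusted p = 5.82e-05). Porcn, the acyltransferase that lipidates Wnt proteins, fell from 14.6 and 15.1 CPM to 4.51 and 4.90 CPM (-1.66, adjusted p = 5.93e-05). In the m6A-RIP, 1 of 8 genes of this list was higher, Rspo3 (140 and 122 CPM against 166 and 176 CPM, 0.33, adjusted p = 2.77e-04), and 5 were lower, among them Wnt5b (116 and 110 CPM against 57.7 and 55.7 CPM) and Wnt2b (89.1 and 88.4 CPM against 68.1 and 67.8 CPM), ligands with under 1 CPM in every input library.

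The receptor list was split, with 7 of 16 tested genes higher and 5 lower in the RNA. Fzd4 rose from 13.3 and 15.7 CPM to 44.5 and 41.4 CPM (log2 fold change 1.56, SE 0.088, adjusted p = 6.55e-05). Fzd5 fell from 22.8 and 26.6 CPM to 5.88 and 4.49 CPM (-2.25, SE 0.15, adjusted p = 1.08e-04), and Lgr6, an R-spondin receptor, from 17.4 and 17.0 CPM to 0.785 and 1.63 CPM (-3.81, SE 0.19, adjusted p = 4.55e-05). In the m6A-RIP, 4 of 12 were higher and 4 lower. Fzd4 rose there from 9.70 and 9.30 CPM to 28.6 and 28.8 CPM. Fzd1 was lower, at 125 and 126 CPM against 79.8 and 72.1 CPM, and Fzd2 higher, at 114 and 111 CPM against 163 and 167 CPM. The Frizzled receptors therefore did not share 1 direction. In edgeR Fzd1, Fzd3, Fzd5, Fzd6 and Fzd7 were lower and Fzd2 and Fzd4 higher in both assays.

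Of the extracellular antagonists, 1 of 3 tested was lower in the RNA, Sfrp1, with 3.74 and 4.66 CPM against 1.18 and 0.204 CPM (-2.56, adjusted p = 0.00533), and 3 of 3 were lower in the m6A-RIP. Dkk3 fell there from 211 and 216 CPM to 130 and 140 CPM and Sost from 163 and 165 CPM to 122 and 118 CPM, and neither was tested in the RNA. Of the cytoplasmic relay and destruction complex, 3 of 12 were higher and 4 lower in the RNA, and 5 of 11 higher and 1 lower in the m6A-RIP. DESeq2 called none of the higher genes of this list in the RNA. Csnk1a1, the priming kinase of β-catenin, fell from 120 and 116 CPM to 88.5 and 89.6 CPM (-0.41, adjusted p = 2.45e-04), and Tnks, the tankyrase that turns over Axin, from 52.1 and 54.6 CPM to 37.7 and 37.3 CPM (-0.51, adjusted p = 3.74e-04). Gsk3a, the paralogue of Gsk3b, and the relay protein Dvl2 rose in the m6A-RIP, from 124 and 122 CPM to 153 and 159 CPM and from 62.2 and 59.7 CPM to 85.9 and 79.4 CPM. The RNA of Gsk3a measured 160 and 171 CPM against 195 and 189 CPM (0.21, adjusted p = 0.00709), a call that DESeq2 did not make (adjusted p = 0.149).

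Among the nuclear partners, 5 of 14 were lower and 2 higher in the RNA. DESeq2 called only Tcf7 lower and Tle5 higher. Tcf7, a TCF factor, fell from 31.4 and 32.4 CPM to 18.2 and 16.3 CPM (-0.88, adjusted p = 1.96e-04), and the co-activator Ep300 measured 22.6 and 23.1 CPM against 14.7 and 14.3 CPM (-0.66, adjusted p = 3.59e-04, but 0.0854 in DESeq2). Tcf7l1, the remaining TCF factor, added after its values were seen, measured 12.1 and 11.6 CPM against 11.6 and 9.998 CPM and overlapped between the groups (-0.13, adjusted p = 0.561). Tle5, a short Groucho family protein, rose from 125 and 124 CPM to 183 and 185 CPM (0.57, adjusted p = 4.16e-05). In the m6A-RIP, Tle5 was again higher (1015 and 1040 CPM against 1610 and 1702 CPM), and Ep300 and the co-activator Crebbp (167 and 161 CPM against 119 and 114 CPM) were lower. The RNA of Crebbp measured 28.0 and 30.2 CPM against 20.99 and 22.6 CPM (-0.42, adjusted p = 0.00350, but 0.238 in DESeq2).

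None of 6 tested textbook target genes was higher in the RNA and 3 were lower in edgeR's test: Ccnd1, Cd44 and Fosl1. Ccnd1, cyclin D1 of the G1 phase, fell from 588 and 583 CPM to 76.7 and 75.9 CPM (-2.94, SE 0.028, adjusted p = 1.26e-06). Cd44, an adhesion receptor, fell from 120 and 124 CPM to 76.7 and 80.6 CPM (-0.64, adjusted p = 8.99e-05), and Fosl1, an AP-1 subunit, from 25.6 and 30.3 CPM to 5.49 and 8.77 CPM (-1.98, adjusted p = 3.88e-04). In the m6A-RIP 4 of 7 genes of this list were lower and 0 higher, the same 3 genes and Myc. Ccnd1 fell there from 411 and 398 CPM to 66.0 and 61.5 CPM. Myc fell from 88.0 and 90.8 CPM to 75.3 and 70.0 CPM (-0.35, adjusted p = 8.31e-05), while its RNA was not called (-0.44, adjusted p = 0.0568). Axin2 and Lef1, counted here among the members, are also textbook targets, with Axin2 lower in the RNA in edgeR but not in DESeq2 (adjusted p = 0.240) and Lef1 too low to test. In the m6A-RIP both were higher (0.33 and 0.48), Axin2 through its largest row.

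The cadherins bind β-catenin at cell contacts, and Cdh11 had the largest change among the pathway genes named here. In the RNA 4 of 6 were lower and 1 higher. Cdh11 fell from 55.7 and 56.8 CPM to 2.35 and 2.45 CPM (-4.54, SE 0.080, adjusted p = 4.08e-06) and Cdh2, N-cadherin, from 365 and 371 CPM to 155 and 159 CPM (-1.23, SE 0.028, adjusted p = 5.70e-06). Cdh15, the M-cadherin of MuSCs and myoblasts, rose from 1323 and 1386 CPM to 2267 and 2345 CPM (0.77, SE 0.032, adjusted p = 2.77e-05). The catenins Ctnnd1 (37.0 and 37.1 CPM against 27.1 and 26.9 CPM, -0.46, adjusted p = 5.75e-04) and Ctnna1 (110 and 110 CPM against 97.5 and 99.98 CPM, -0.15, adjusted p = 0.0245) were lower in edgeR alone, with adjusted p = 0.125 and 0.417 in DESeq2.

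Relative to the RNA, 6 of 50 pathway genes passed in the m6A-RIP, beside 7.26% of all genes, and were named after their values were seen. Cdh11 (3.62, SE 0.21), Cdh2 (1.29, SE 0.072), Fzd5 (1.15, SE 0.19) and Tle1 (0.65, SE 0.17, adjusted p = 0.0426) were higher in Lin28a+ MuSCs, and Lgr5 (-0.87, SE 0.21, adjusted p = 0.0326) and Kremen1 (-0.31, SE 0.052) lower. The SEs of Cdh11, Fzd5, Lgr5 and Tle1 lay below the counting error of both assays together (0.30, 0.23, 0.22 and 0.21), and DESeq2 called neither Lgr5 (adjusted p = 0.147) nor Tle1 (adjusted p = 0.131). Cdh2 measured 248 and 245 CPM against 280 and 250 CPM in the m6A-RIP while its RNA fell to 0.425 of the control level. In the Igf2bp3-RIP relative to the RNA, Fzd5 passed alone of 28 genes (1.81, SE 0.23, adjusted p = 0.0275), beside 1.36% of all genes. That SE was close to the 0.22 of its Igf2bp3-RIP alone, although its RNA alone had an SE of 0.15. The call was lost when any 1 of the 4 input libraries was left out (adjusted p = 0.246 to 0.272), and over 13 alternatives the adjusted p ran from 0.00378 to 0.272.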

How the data were processed

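Per the labels, RNA of MuSCs was made into libraries with an RNA-seq kit (Vazyme NR605) and sequenced on an Illumina HiSeq X10. Before the m6A-RIP, according to the study's methods, mRNA was purified from total RNA and fragmented, and part of the mRNA served as input. According to the study's methods and the submitters' processing notes, reads were checked with FastQC and aligned with HISAT2 2.0.4, peaks were called with MACS2 1.4.3 and expression was tested with DESeq2 1.42.0. The methods name the human assembly GRCh38, while the notes also list mm10. All identifiers are those of mouse, and the member peaks lie at their genes in GRCm38.p6, the build of mm10. The program that counted reads is not given in the sources used here. The authors deposited whole-number counts per row or peak for the RIP libraries, with no scaling, and for the input estimated counts per gene (expected counts), which were rounded here. A row of the m6A-RIP table carries a transcript and no position. In the input table the Lin28a+ columns are headed like m6A-RIP libraries, and in the m6A-RIP table both Lin28a+ columns have 1 heading. These 4 columns entered their groups with no replicate number, and first and second library only name them.

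Entrez and Ensembl identifiers were matched to RefSeq symbols (99.96% of input genes, 99.96% of m6A-RIP rows), with 528 Ensembl symbols renamed through a RefSeq synonym. Peaks were set against RefSeq spans of GRCm38.p6, in which every member peak overlapped its gene. R 4.3.3 and edgeR 4.0.16 were used with TMM factors, filterByExpr, the quasi-likelihood test with the Benjamini-Hochberg adjustment over all features, and a threshold of 0.05. Standard errors are the estimate over the root of its F statistic. RIP relative to RNA was the interaction of cells and assay in 1 model, with TMM factors within each assay. Levels were log2 ratios of CPM with 1 CPM added to each side. Motifs were searched in the 250 bases before each RefSeq start. Each test was also run on simulated counts with 200 changed features. Their spread was set in advance and not taken from these libraries, so the run cannot show how the tests behave on these data. Members, role lists and the rule for naming genes were chosen with earlier results of these data known: all members were named, and of the other pathway genes the 3 with the smallest p in each direction among those called without overlap of the groups, in RNA and in m6A-RIP, up to 2 more called genes per role, and the 3 genes on either side of Axin2 in the ratio. Alternatives were DESeq2 1.42.0, other scalings and filters, each library left out, and for the Igf2bp3-RIP the replicate number as a block. Library totals are in the report. No molecular identifiers marked PCR copies, so counting error is a lower limit where 1 unit is 1 read, which is not known for the input. The RNA standard errors of edgeR fell below that of the rounded values for 92.1% of genes.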

Additional observations from a re-analysis of the deposited data

How the results depend on the processing

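Over the single members, 392 recomputed values kept direction and side of the threshold, 15 crossed it (9 lost, 6 gained) and 21 changed sign. Axin2 in the m6A-RIP was the called change that turned, from 0.33 to -0.88 without its largest row, and its level fell from 9.45 to 1.75, while plain CPM in place of TMM-scaled CPM gave 9.54. Both alternatives were chosen after seeing the data. The other sign changes were of uncalled values near 0. Tcf7l2 in the RNA went to 0.022 with total counts and 0.0062 with no filter, and Lrp6 relative to RNA in the m6A-RIP to -0.013 with no filter. DESeq2 called 3039 genes in the RNA (6432 in edgeR), 336 in the m6A-RIP relative to RNA (546), with 1 member, and 263 peaks (24) and 115 genes (13) in the Igf2bp3-RIP. With at least 10 counts in every library 0 Igf2bp3-RIP peaks were called. With total counts 7 genes were called in the Igf2bp3-RIP and 100 relative to RNA (51, of which 18 higher and 33 lower, against 72 and 28). Total counts shifted the median by -0.10 in the m6A-RIP per gene (2390 higher and 3765 lower, against 3060 and 3176), by -0.15 per row (3842 and 7638, against 5665 and 6005) and by 0.13 in the Igf2bp3-RIP relative to RNA.

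With the replicate block, 1988 Igf2bp3-RIP peaks, 1 of them of a member (Ctnnb1, -0.68), and 370 genes were called. The replicate differences of the groups correlated with r = 0.70, but over 2 pairs whose labels name no shared batch, so the number was not taken as a pairing. No paired analysis was possible for the RNA and the m6A-RIP because the Lin28a+ columns carry no usable number.

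Leaving out 1 library at a time gave 304 to 614 calls in the m6A-RIP relative to RNA, 108 to 193 peaks and 39 to 76 genes in the Igf2bp3-RIP, and 0 to 629 genes relative to RNA, with 0 to 1 member. The 629 came without Lin28a+ replicate 1, and 0 without any 1 of the input libraries. The cause was not tested. Tcf7l2 ranged from -0.016 to 0.0038 in the RNA, -0.31 to 0.081 in the m6A-RIP, -0.29 to 0.084 relative to RNA, -0.13 to 0.35 in the Igf2bp3-RIP and -0.36 to 0.12 relative to RNA. In the m6A-RIP relative to RNA, Apc ranged from -0.12 to 0.023, Ctnnb1 from -0.069 to 0.0066 and Lrp6 from -0.13 to 0.15. In the Igf2bp3-RIP, Fzd7 ranged from -0.20 to 0.22 and Lrp6 from -0.10 to 0.16. Groups of 1 library were taken to vary like the others. Low deposited values limit Lef1, Tcf7l2 and Axin2 in the RNA, and how many reads they stand for is not known.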
